A study of Mus musculus with 28 samples.

Results

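The 3 mouse blastocysts labelled MZ_KO were compared with the 3 labelled WT_flfl, 6 of the 28 samples of the series, across every gene measured. The series title places the work on CTCF, on chromatin folding after fertilization and on a change of metabolism between morula and blastocyst. Each sample was the polyadenylated RNA of 1 whole embryo of the CD1 strain, copied by SMART-Seq for very small inputs and sequenced on an Illumina HiSeq, and all 6 belonged to sequencing batch 1. The groups were taken from the genotype code in the sample titles: MZ_KO 2, 6 and 7, and WT_flfl 1, 7 and 9. The labels do not spell the codes out. In this field MZ commonly stands for a product missing from both egg and embryo, M for one missing from the egg alone, and flfl for an intact gene flanked by loxP sites. What deletes the gene, in which cells, and which part of it is removed are not given in the sources used here. MZ_KO embryos carry the title prefix C7 together with the 4 M_KO blastocysts, and WT_flfl embryos carry N89 together with the 4 het blastocysts, so prefix and genotype cannot be told apart in MZ_KO against WT_flfl. MZ_KO against M_KO, within prefix C7, was therefore run beside it and is also the test of the difference between those genotypes.

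CTCF is a zinc finger protein that binds a long DNA motif, stops the cohesin ring as it extrudes chromatin loops and so sets the borders of topological domains. It also binds close to the start of many genes. The blastocyst is the first stage with separate cell types: an outer trophectoderm that pumps fluid into a cavity, and an inner cell mass that divides into epiblast and primitive endoderm. The embryo turns at this stage from pyruvate towards glucose, and its mitochondria become more active.

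Levels below are counts per 1000000 reads (CPM), in the order WT_flfl 1, 7, 9 or MZ_KO 2, 6, 7. Differences are MZ_KO minus WT_flfl on the scale log2(CPM + 1), which understates the change of genes near 0. A gene rose or fell where limma's moderated test gave a Benjamini-Hochberg adjusted p below 0.05 over all 9585 genes tested, with no fold threshold.

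Ctcf itself was nearly gone from the MZ_KO blastocysts. It stood at 91.7, 102 and 91.6 CPM in WT_flfl and at 2.92, 4.23 and 3.72 CPM in MZ_KO, between 70 and 101 reads per MZ_KO embryo, and at 53.2, 62.1, 89.4 and 73.2 CPM in M_KO 1, 3, 4 and 5. Every MZ_KO embryo lay below every embryo of the other groups. Ctcf (chromosome 8, 105636568 to 105682922 of GRCm38, plus strand) fell by 4.39 log2 units (SE 0.24, adjusted p = 1.17e-08), and an exact two-sided permutation test of the CPM gave p = 0.1, the smallest that 3 against 3 embryos allow, and p = 0.0286 against the 4 M_KO. Reads were counted over the whole gene, so a shortened transcript and a missing one cannot be told apart.

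With the loss of Ctcf more genes were called lower than higher, and more of the falls than of the rises were steep. Of the 9585 genes, 1265 (13.2%) were called: 801 (8.36%) fell and 464 (4.84%) rose, around a median difference over all genes of -0.05. With limma's voom precision weights 586 fell and 482 rose. Among the genes that fell, 258 fell by at least 2 on the log2 scale and 80 by at least 3, against 62 and 20 among those that rose. The genes that fell held between 11.9% and 12.6% of the CPM of tested genes in WT_flfl embryos and between 5.45% and 6.55% in MZ_KO embryos. Those that rose held between 8.41% and 8.67% against between 14.1% and 15.5%. Both sets were called from these same embryos, so the direction of these shares was fixed by the calls and they are a description only. The 3 embryos of one group did not overlap the 3 of the other for 3097 genes (32.3%).

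MZ_KO against M_KO called 1133 genes (11.8%), 358 higher and 775 lower. In M_KO against WT_flfl limma called 0 genes, where 494 genes had an unadjusted p under 0.05 and the smallest adjusted p was 0.133. For het against WT_flfl the counts were 0 and 187. The genes lower in MZ_KO had a median difference from WT_flfl of -1.46 in MZ_KO and -0.19 in M_KO, and a median of -1.25 between MZ_KO and M_KO. These comparisons share embryos and are given side by side only.

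Reads per embryo lay between 20368499 and 27343104 in the 6 embryos, with 13609 to 15111 genes detected, so depth was alike among them. Of all 14 blastocysts in the fit M_KO 1 had the fewest reads, 7377302. The counts of calls rested in part on single embryos. The 464 rises became 252 without MZ_KO 2, 306 without WT_flfl 1, 282 without WT_flfl 7 and 277 without WT_flfl 9, and the 801 falls became 522 without WT_flfl 1 and 501 without WT_flfl 7; 541 genes, 157 higher and 384 lower, were called in all 6 such fits. Of the 8 blood markers tested 0 were called; all 12 summed to between 1027 and 34668 CPM in WT_flfl, the highest in WT_flfl 1, and to between 1638 and 7587 CPM in MZ_KO. WT_flfl 1 and het 6 had the highest haemoglobin levels, and without both 297 genes rose and 490 fell. The 7 oviduct and uterus markers in the table summed to between 59.1 and 134 CPM in MZ_KO and between 115 and 258 CPM in WT_flfl, with 0 of 6 tested called higher and 1, Sox17, called lower (median -1.25). Sox17 is also a marker of primitive endoderm. The 1 granulosa cell marker in the table stood at up to 7.17 CPM. Ddx3y and Eif2s3y, which lie on the Y chromosome, were at 10 CPM or more in 2 of 3 MZ_KO and 1 of 3 WT_flfl embryos. The part of blood, oviduct and sex in the results was not tested beyond that fit. Nothing in the labels says which embryos shared a mother or a day, so p-values measure only the spread between these embryos.

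Single genes went from clear expression to a few reads. Adprhl2, which removes ADP-ribose from serines after DNA damage, stood at 101, 106 and 162 CPM in WT_flfl and at 0.0417, 0 and 0 CPM in MZ_KO. That is 7694 reads against 1 read, or 0.0112% of the WT_flfl level with an exact 95% counting interval from 0.00028% to 0.0625%, and M_KO stood at 97.5, 108, 113 and 114 CPM. The interval covers counting error only, since amplified reads are not independent molecules and the spread between embryos is not in it. Its fitted difference of -6.90 (SE 0.25, adjusted p = 2.17e-11) depends on the pseudocount. Dennd6b, a regulator of Rab GTPases, and Dapk2, a death-associated kinase, were the 2 genes called lower with 0 reads in every MZ_KO embryo; they had 794 and 546 reads over the WT_flfl embryos, and were named after their values were seen.

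Enzymes and organelle proteins of several kinds were among the 15 largest falls taken by the naming rule. AA467197 fell from 171, 59.4 and 78.6 CPM in WT_flfl to 0.791, 1.42 and 0.0369 CPM in MZ_KO (difference -5.83, SE 0.78, adjusted p = 1.55e-04). Gfm1, the elongation factor of mitochondrial ribosomes, fell from 149.97, 195 and 156 CPM in WT_flfl to 3.62, 0.0918 and 13.7 CPM in MZ_KO (difference -5.31, SE 0.57, adjusted p = 2.19e-05). Ext2, which builds heparan sulfate chains, fell from 37.2, 48.7 and 75.2 CPM in WT_flfl to 0, 0 and 1.58 CPM in MZ_KO (difference -5.26, SE 0.41, adjusted p = 8.05e-07). In each of these genes the highest MZ_KO embryo stayed far below the lowest WT_flfl embryo. The naming rule took only genes whose groups did not overlap, so the separation itself was fixed by it. Ttc5, a repeat protein that helps tubulin messages to be destroyed when free tubulin is high, fell from 67.5, 57.1 and 67.7 CPM in WT_flfl to 2.29, 0.276 and 1.81 CPM in MZ_KO, a difference of -4.83 in log2 units (SE 0.35, adjusted p = 4.01e-07). Ppa2, the mitochondrial pyrophosphatase, fell from 56.7, 74.5 and 77.6 CPM in WT_flfl to 1.21, 6.02 and 1.51 CPM in MZ_KO, a difference of -4.37 in log2 units (SE 0.39, adjusted p = 2.51e-06). M_KO embryos kept these transcripts, at 72.5, 102, 48.9 and 54 CPM of Ttc5 and 54.4, 79.7, 58.7 and 57.8 CPM of Ppa2. Sh3bp5, which activates Rab11, fell from 76.6, 91.6 and 37.5 CPM in WT_flfl to 3.67, 0 and 2.62 CPM in MZ_KO, and Tbc1d9b, a Rab GTPase-activating protein, fell from 16.6, 33.1 and 42.8 CPM in WT_flfl to 1.58, 0 and 0.147 CPM in MZ_KO. Enpep, Fabp5 and Adh1 belong to the same 15, with differences of -6.43, -4.67 and -5.06, and Adh1 spread from 2.95 to 386 CPM among M_KO embryos. The processed pseudogene Mrpl23-ps1 (-4.64) and BC051665 (-4.80), a cathepsin-like protease gene with close paralogs, are uncertain, since reads may be split between near-identical copies. BC051665 was not called in 5 of the 6 fits without 1 embryo (adjusted p up to 0.125).

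The choice of weights also changed calls on these genes. With limma's voom precision weights 15 of the 30 genes named by size (10 lower, 5 higher) no longer passed, at adjusted p between 0.0512 and 0.706, among them Adprhl2, Enpep, AA467197, Ext2, Adh1, Rasl11a and Hand1, each with an MZ_KO or WT_flfl embryo at or near 0. Gfm1, Ttc5, Fabp5, Ctcf, Ppa2, Gdpd1, Hoxb13, Nanos1, Kng1, I0C0044D17Rik, Dpf3 and Ccn2, 12 of the 30, passed in every alternative. Gfm1 and Ttc5 did so with an MZ_KO embryo near 0 as well, and why calls were lost was not tested. Of the 30, 29 were also called against M_KO in the same direction, where 11.8% of all genes tested were called. The 30 were picked by size in the same MZ_KO embryos, so this count is not independent of that choice.

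**Figure D1:**
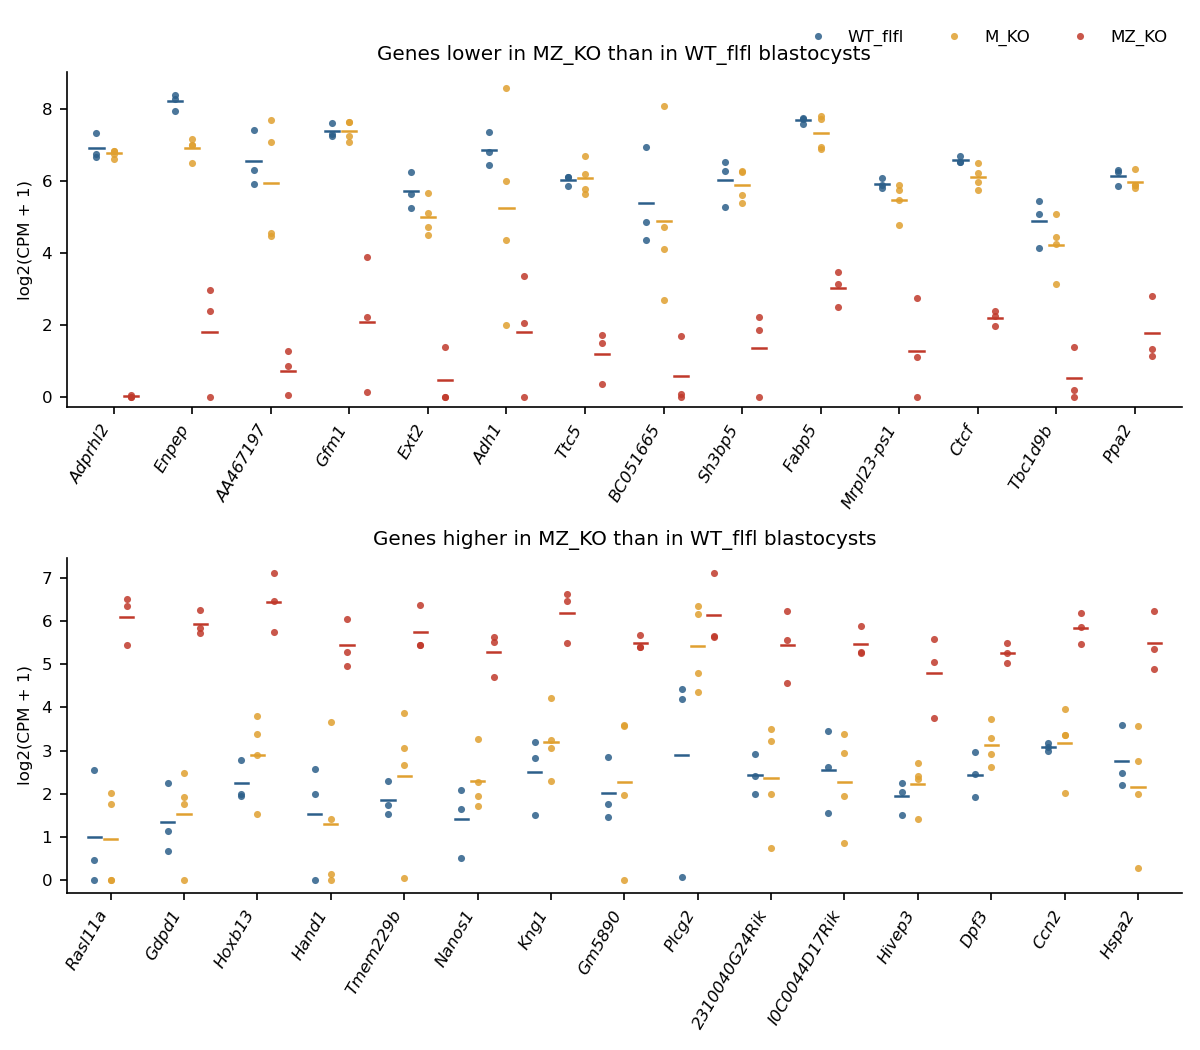
Level of 14 of the 15 genes named as largest falls (top) and the 15 named as largest rises (bottom) on the scale log2(CPM + 1); each point is 1 embryo of WT_flfl (n = 3), M_KO (n = 4) or MZ_KO (n = 3) and each dash the group mean. MZ_KO and WT_flfl stand apart in every gene because the naming rule asked for that. The MZ_KO points also stand apart from M_KO in most genes, and M_KO overlaps MZ_KO in Adh1 and Plcg2.

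Several of the steepest falls had the letters of the CTCF motif core just before the gene start. The promoters of RefSeq (GRCm38.p6, 250 bases before to 50 after each start) were searched on both strands for CC, 3 letters of any kind, then AGGGGGC or AGGTGGC or AGAGGGC or AGATGGC. The stretches below show the core, in capitals, in 4 of the 5 largest falls and in 2 further genes that fell, Alpl and, named after its values were seen, Fam133b (-2.54, adjusted p = 0.00298), read 5′ to 3′ on the strand of the gene, with the position counted from the gene start.

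Adprhl2 (chr4:126321724-126321783, minus strand, first capital at -56): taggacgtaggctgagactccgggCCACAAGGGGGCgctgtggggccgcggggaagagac
AA467197 (chr2:122637768-122637827, plus strand, first capital at -95): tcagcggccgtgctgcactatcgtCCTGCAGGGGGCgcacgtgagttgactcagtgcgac
Gfm1 (chr3:67430007-67430066, plus strand, first capital at -84): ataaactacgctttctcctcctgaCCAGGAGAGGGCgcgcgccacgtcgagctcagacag
Ext2 (chr2:93822569-93822628, minus strand, first capital at -36): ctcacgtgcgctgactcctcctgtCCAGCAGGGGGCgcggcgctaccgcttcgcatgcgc
Alpl (chr4:137796424-137796483, minus strand, first capital at -75): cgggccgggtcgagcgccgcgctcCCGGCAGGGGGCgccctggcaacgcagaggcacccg
Fam133b (chr5:3543742-3543801, plus strand, first capital at -67): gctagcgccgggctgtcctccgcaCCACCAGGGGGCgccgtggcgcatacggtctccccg

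In these 6 genes, which were picked as examples, the core reads in the direction of transcription and begins between 36 and 95 bases before the start. Other falls differed: the match of Cd82 began at base -240, and that of Slc2a1 at base -18 on the opposite strand. Of the 15 genes named as largest falls, 12 had a promoter in the table and 4 held the letters, Adprhl2, AA467197, Gfm1 and Ext2; of the 15 largest rises, 10 had one and 0 held them. Both genes at 0 reads in MZ_KO held them too, Dapk2 from base -96 on the strand of the gene and Dennd6b from base -180 on the opposite strand. Over all genes that fell, 643 of 801 (80.3%) had a promoter and 63 held the letters, 9.80%, against 4.86% of the genes that rose with a promoter, 5.66% of the 7443 tested genes with a promoter and 3.88% of the 27025 genes of the whole table. Median GC content was 61.67% in promoters of the genes that fell, 61.00% in those tested and 52.67% in the whole table. A promoter was matched for 77.7% of the tested genes, 77.5% of those not called and 75.4% of those that rose. These are under 80%, so a comparison between the sets is void and the shares are counts only.

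The matches of genes that fell were on the strand of the gene in 50 of 66 cases (75.8%), and those of genes not called in 213 of 353 (60.3%). Matches began between base -120 and base -30 in 40 of 66 cases (60.6%) in genes that fell and in 154 of 353 (43.6%) in genes not called. That window was chosen after the positions were seen, so these shares cannot show a preferred place. In genes that rose, 10 of 18 matches (55.6%) were on the strand of the gene and 9 of 18 began in that window. A match is a description of letters and not of binding, and no test was run on these shares. They are counts only, since a comparison between the sets is void here too. Most promoters with the letters belonged to genes that were not called, and most genes that fell had no match in this window.

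**Figure D2:**
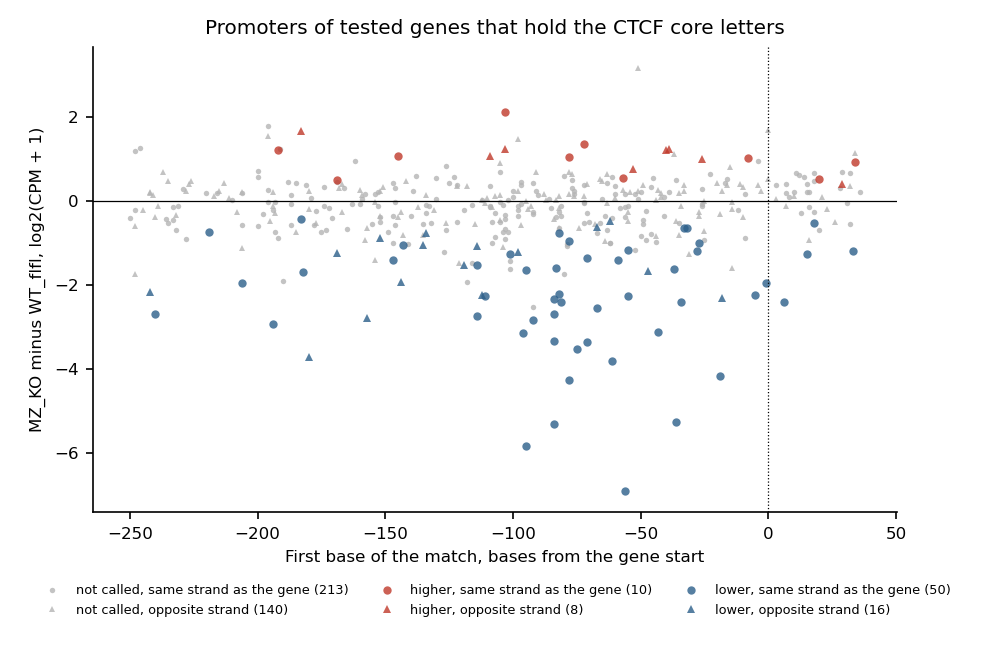
Each mark is 1 match of the CTCF core letters in a RefSeq promoter of a tested gene, at the distance of its first base from the gene start (horizontal axis, bases) and at the gene's MZ_KO minus WT_flfl difference (vertical axis, log2(CPM + 1)); circles are on the strand of the gene and triangles on the opposite one. The matches of Adprhl2, AA467197, Gfm1 and Ext2, 4 of the 5 largest falls by the naming rule, begin between 36 and 95 bases before the start. Enpep, the other of those falls, had a promoter without a match and is not shown. The 353 matches of genes not called are spread over the window.

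Among the rises, several genes went from near 0 to clear expression. Rasl11a, a small Ras-like GTPase, rose from 4.85, 0.384 and 0 CPM in WT_flfl to 79.98, 42.5 and 90.5 CPM in MZ_KO (difference 5.09, SE 0.86, adjusted p = 0.0011). Gdpd1, an enzyme that cleaves lysophospholipids, rose from 3.78, 1.2 and 0.588 CPM in WT_flfl to 51.9, 55.8 and 75.3 CPM in MZ_KO, a difference of 4.58 in log2 units (SE 0.69, adjusted p = 4.36e-04). M_KO was as low as WT_flfl, at 0, 2.42, 0 and 3.06 CPM of Rasl11a and 2.79, 4.59, 2.37 and 0 CPM of Gdpd1.

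Regulators known mainly from later development were in this group. Hoxb13, a homeobox gene of the posterior body, rose from 3.0, 2.83 and 5.83 CPM in WT_flfl to 87.7, 137 and 52.5 CPM in MZ_KO, a difference of 4.20 in log2 units (SE 0.64, adjusted p = 4.72e-04). Hand1, which drives trophoblast giant cell differentiation after implantation, rose from 4.94, 2.98 and 0 CPM in WT_flfl to 37.9, 65.4 and 30.2 CPM in MZ_KO (difference 3.91, SE 0.93, adjusted p = 0.0106). For Hand1 the call was lost without WT_flfl 9 (adjusted p up to 0.0501). Nanos1, an RNA-binding repressor of the germ line, rose from 3.28, 0.432 and 2.11 CPM in WT_flfl to 44.3, 48.1 and 25 CPM in MZ_KO (difference 3.86, SE 0.75, adjusted p = 0.00301). In all 3 genes the lowest MZ_KO embryo lay above the highest M_KO embryo. No overlap with WT_flfl was a condition of the naming rule. Dpf3, a subunit of BAF chromatin remodellers, rose from 2.77, 6.77 and 4.5 CPM in WT_flfl to 31.4, 43.7 and 37.2 CPM in MZ_KO, a difference of 2.81 in log2 units (SE 0.57, adjusted p = 0.00411), and the zinc finger gene Hivep3 rose by 2.85. The call on Hivep3 did not hold without MZ_KO 2 (adjusted p up to 0.0627).

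Ccn2, a secreted matrix protein and a known target of YAP and TEAD, was even within both groups. It rose from 6.97, 7.97 and 7.49 CPM in WT_flfl to 43.4, 57.5 and 72.2 CPM in MZ_KO, a difference of 2.76 in log2 units (SE 0.44, adjusted p = 6.84e-04), with M_KO at 3.06, 9.33, 14.7 and 9.24 CPM. Kng1, which encodes kininogen, rose from 8.12, 6.1 and 1.86 CPM in WT_flfl to 43.8, 86.7 and 98 CPM in MZ_KO, and Tmem229b, a membrane protein, rose from 2.35, 1.87 and 3.87 CPM in WT_flfl to 42.7, 81.6 and 42.3 CPM in MZ_KO. Hspa2, a chaperone known from testis, rose by 2.73. Hspa2 was not called without MZ_KO 6, WT_flfl 7 or WT_flfl 9 (adjusted p up to 0.0712). Of transcripts with no known role, I0C0044D17Rik rose by 2.93, 2310040G24Rik by 3.02 and Gm5890 by 3.46. For 2310040G24Rik the call was lost without MZ_KO 2 (adjusted p up to 0.0638). The call on Gm5890 did not hold without WT_flfl 1 (adjusted p up to 0.0519). Plcg2, a phospholipase of immune receptor signalling, rose by 3.23, stood at 19.4, 80.1, 26.9 and 70.5 CPM in M_KO and was the 1 gene of the 30 not called against M_KO (adjusted p = 0.66). Plcg2 was not called in 4 of the 6 fits without 1 embryo (adjusted p up to 0.155).

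**Figure D3:**
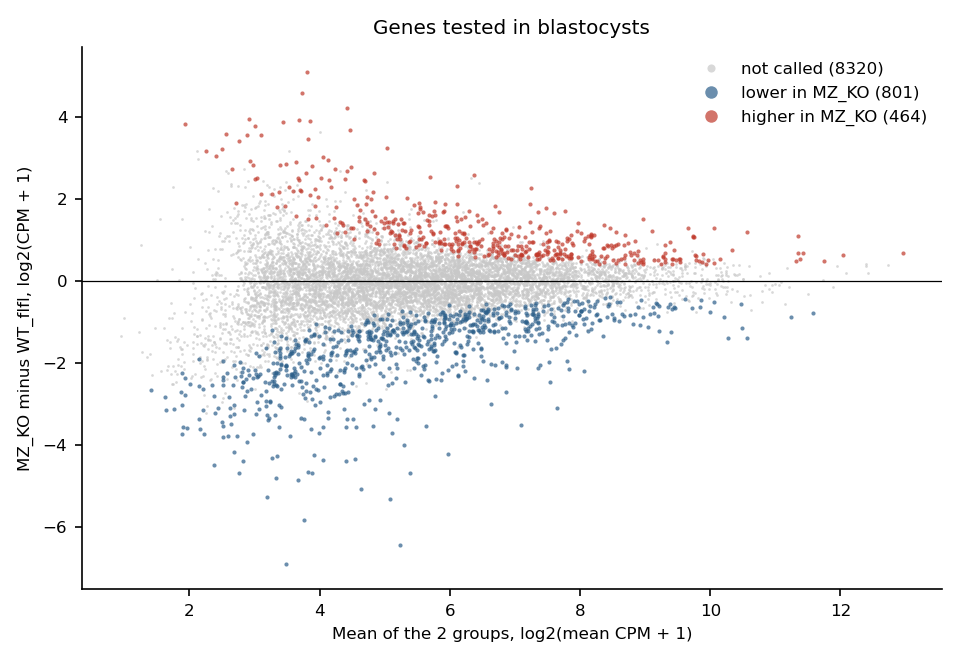
Each point is 1 of the 9585 genes tested, with the mean level of the 2 groups (horizontal axis, log2(mean CPM + 1)) against the MZ_KO minus WT_flfl difference (vertical axis, log2(CPM + 1)); the 464 genes that rose and the 801 that fell are coloured. The falls reach -6.90 in Adprhl2, and the rises 5.09 in Rasl11a.

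Genes that changed lay on every autosome. Among the autosomes and X, leaving out Y (4 tested genes) and the mitochondrial genome (15 tested genes, of which 0 rose and 3 fell), the share of tested genes that fell was lowest on chromosome 13 (5.04%, 19 of 377) and highest on chromosome 15 (11.76%, 44 of 374), and the share that rose was lowest on chromosome X (1.42%, 4 of 281) and highest on chromosome 11 (7.86%, 61 of 776). The calls of neighbours on a chromosome are given as shares, with no test of the difference. Of the tested genes next to a gene that fell, 10.99% fell, against 8.37% of all neighbours; next to a gene that rose, 9.28% rose, against 4.85%. Of pairs that started within 10 kb of each other without overlapping, the share was 18.18% against 8.97% for falls. Overlapping genes are in the first 2 values, and reads of overlapping genes cannot be told apart.

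The longest unbroken row of called genes held Nanog. On chromosome 6 from 122505845 to 122888941 (GRCm38) all 7 tested genes in a row were called, 6 higher and 1 lower. The embryos of the groups did not overlap for any of them, as held for 1239 of all 1265 called genes. Dppa3, a maternal protein that shields methylated DNA from demethylation, rose from 1867, 1656 and 1853 CPM in WT_flfl to 4436, 3514 and 3489 CPM in MZ_KO, a difference of 1.08 in log2 units (SE 0.15, adjusted p = 2.15e-04). Nanog, the homeobox factor of the epiblast, rose from 155, 164 and 136 CPM in WT_flfl to 292, 432 and 239 CPM in MZ_KO, a difference of 1.04 in log2 units (SE 0.25, adjusted p = 0.0128). For Nanog the call was lost without MZ_KO 6 (adjusted p up to 0.0638). Gdf3, a ligand of the Nodal pathway, rose by 0.97 log2 units (SE 0.28, adjusted p = 0.0313), and Mfap5, a matrix microfibril protein, rose by 2.28 log2 units (SE 0.61, adjusted p = 0.0204). The call on Gdf3 did not hold in 4 of the 6 fits without 1 embryo (adjusted p up to 0.112). Mfap5 was not called without MZ_KO 2, WT_flfl 7 or WT_flfl 9 (adjusted p up to 0.106). Slc2a3, a glucose transporter next to Nanog on the opposite strand, went the other way: it fell from 566, 599 and 463 CPM in WT_flfl to 242, 308 and 359.5 CPM in MZ_KO, a difference of -0.85 in log2 units (SE 0.27, adjusted p = 0.0446). For Slc2a3 the call was lost in 5 of the 6 fits without 1 embryo (adjusted p up to 0.163). Beyond it Foxj2, a forkhead factor, rose from 4.48, 8.31 and 5.04 CPM in WT_flfl to 23.1, 39.6 and 23.4 CPM in MZ_KO (difference 2.09, SE 0.52, adjusted p = 0.0136). The call on Foxj2 did not hold without MZ_KO 6 or WT_flfl 1 (adjusted p up to 0.06). Necap1, an endocytosis protein, rose from 133, 96.9 and 98.7 CPM in WT_flfl to 182, 194 and 259 CPM in MZ_KO (difference 0.94, SE 0.22, adjusted p = 0.0102). Foxj2 and Necap1 were named after their values were seen. Against M_KO, Mfap5, Dppa3, Nanog, Foxj2 and Necap1 were called higher, and Gdf3 (adjusted p = 0.295) and Slc2a3 (adjusted p = 0.114) were not called.

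Other neighbours fell together. Cd82, a tetraspanin, fell by 2.70 log2 units (SE 0.60, adjusted p = 0.00731), next to Ext2 among the tested genes of chromosome 2. Gata4 and Tdh on chromosome 14, also neighbours among the tested genes, both fell, as given with their lineages. Gdpd1 on chromosome 11 had a neighbour that rose as well, Ypel2, which rose from 59.5, 49 and 24.2 CPM in WT_flfl to 118, 102 and 154 CPM in MZ_KO (difference 1.55, SE 0.30, adjusted p = 0.00305). These pairs are named as neighbours of genes already named, and how often steep pairs arise between genes taken at random was not tested.

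Gene lists are given below by the number of members tested, the number that rose or fell and the median difference of all tested members, beside the 4.84%, the 8.36% and the median of -0.05 over all genes. With precision weights Asns, Dpp4, Gata4, Hspg2, Kremen1, Mycn, Psmb9, Serpinh1, Sox17, Wnt6, Cd82, Fam133b, Mfap5, Dapk2 and Dennd6b lost their calls, at adjusted p between 0.0508 and 0.481, all in the same direction. Without WT_flfl 1 and het 6 this held for BC051665, Gm5890, Dppa4, Eomes, Gdf3, Id2, Kremen1, Limd1, Psmb9, Serpinh1, Sox17, Tigar, Foxj2 and Slc2a3, at adjusted p between 0.0504 and 0.125.

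Genes of all 3 lineages of the blastocyst were called, but most of their leading transcription factors were not. The trophectoderm factors Cdx2 (-0.60, adjusted p = 0.156), Gata3 (-0.60, adjusted p = 0.122), Tfap2c (-0.02, adjusted p = 0.969) and Tead4 (0.40, adjusted p = 0.37) did not pass the test and overlapped between the groups. Neither did Pou5f1 (0.27, adjusted p = 0.341), Klf4 (0.42, adjusted p = 0.479) or Gata6 (0.12, adjusted p = 0.827). Sox2, at a mean of 9.22 CPM in MZ_KO and 6.42 CPM in WT_flfl, was below the filter on low values. In whole embryos, fewer cells of a type and less RNA per cell cannot be told apart.

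Of 36 tested genes of the trophectoderm list 2 rose and 9 fell (median -0.50). Eomes, which maintains trophoblast stem cells, fell from 186, 219 and 80.5 CPM in WT_flfl to 41.6, 39.2 and 63.3 CPM in MZ_KO (difference -1.64, SE 0.43, adjusted p = 0.0182). Eomes was not called in 4 of the 6 fits without 1 embryo (adjusted p up to 0.0858). Fgfr2, the receptor through which FGF4 of the inner cells reaches the trophectoderm, fell from 202, 217 and 192 CPM in WT_flfl to 42.6, 66.3 and 132 CPM in MZ_KO, a difference of -1.48 in log2 units (SE 0.30, adjusted p = 0.00387). MZ_KO 7 was the highest of its group for both. Krt8, a keratin of the outer epithelium, fell from 3147, 3142 and 3503 CPM in WT_flfl to 1536, 1874 and 1957 CPM in MZ_KO (difference -0.87, SE 0.21, adjusted p = 0.0103), and the tetraspanin Tspan8 fell from 404, 407 and 299 CPM in WT_flfl to 63.6, 23.8 and 188 CPM in MZ_KO (difference -2.45, SE 0.56, adjusted p = 0.00826). For Krt8 the call was lost without MZ_KO 2 (adjusted p up to 0.0508). Against these, Plet1, a surface protein of placental progenitors named after its values were seen, rose by 1.11 (adjusted p = 0.00459), and Hand1 rose as given above. The 8 trophectoderm markers summed to between 4294 and 5794 CPM in MZ_KO and to between 7709 and 8620.5 CPM in WT_flfl. Krt8 alone held a large part of these sums, so they do not describe the markers one by one. Of the 8, 0 were called higher and 2 lower, and Cdx2, Gata3 and Tfap2c were not called.

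Falls outnumbered rises among primitive endoderm genes. Of 22 tested 1 rose and 6 fell (median -0.72), although the 6 markers in the table summed to between 789 and 1169.6 CPM in MZ_KO and between 823 and 1069.8 CPM in WT_flfl. Gata4, which acts after Gata6 in this lineage, fell from 10.2, 19.2 and 38.4 CPM in WT_flfl to 0, 0 and 2.54 CPM in MZ_KO, a difference of -3.77 in log2 units (SE 0.74, adjusted p = 0.00332). Sox17, another factor of the lineage, fell from 27, 31 and 43.7 CPM in WT_flfl to 9.08, 6.15 and 9.14 CPM in MZ_KO (difference -1.93, SE 0.58, adjusted p = 0.0366). The call on Sox17 did not hold in 6 of the 6 fits without 1 embryo (adjusted p up to 0.114). The laminin chain gene Lamb1 fell from 41.5, 117 and 95.4 CPM in WT_flfl to 10.9, 11.8 and 6.78 CPM in MZ_KO (difference -2.89, SE 0.48, adjusted p = 0.00107). Cited1, a transcription cofactor named after its values were seen, rose by 1.51. Cited1 was not called without MZ_KO 2 or WT_flfl 9 (adjusted p up to 0.0813).

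Epiblast genes went both ways. Of 29 tested 5 rose and 4 fell (median 0.15), and the 8 epiblast markers summed to between 1267 and 1466 CPM in MZ_KO and between 962 and 1251 CPM in WT_flfl. Dppa2, a chromatin factor that primes developmental promoters, rose from 465, 576 and 507 CPM in WT_flfl to 1247, 1297 and 1231 CPM in MZ_KO, a difference of 1.29 in log2 units (SE 0.14, adjusted p = 2.06e-05). Its partner Dppa4 rose by 0.66. For Dppa4 the call was lost without MZ_KO 6, WT_flfl 1 or WT_flfl 7 (adjusted p up to 0.0748). Tdh, the threonine dehydrogenase that pluripotent mouse cells depend on and the tested neighbour of Gata4, fell from 51.1, 62.9 and 32.5 CPM in WT_flfl to 14.7, 15.2 and 2.62 CPM in MZ_KO, a difference of -2.31 in log2 units (SE 0.50, adjusted p = 0.00622). Spp1, the secreted glycoprotein osteopontin, fell from 462, 711 and 524 CPM in WT_flfl to 51.9, 45.7 and 111 CPM in MZ_KO (difference -3.10, SE 0.27, adjusted p = 2.51e-06). Stat3, the factor downstream of LIF, fell from 226, 258 and 231 CPM in WT_flfl to 79.6, 103 and 139 CPM in MZ_KO (difference -1.18, SE 0.23, adjusted p = 0.00292). Of the 40 maternal and oocyte genes listed 7 passed the filter on low values; of these 3 rose and 0 fell, Dppa3, Khdc3 and Ube2s (1.36, adjusted p = 1.06e-04).

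**Figure D4:**
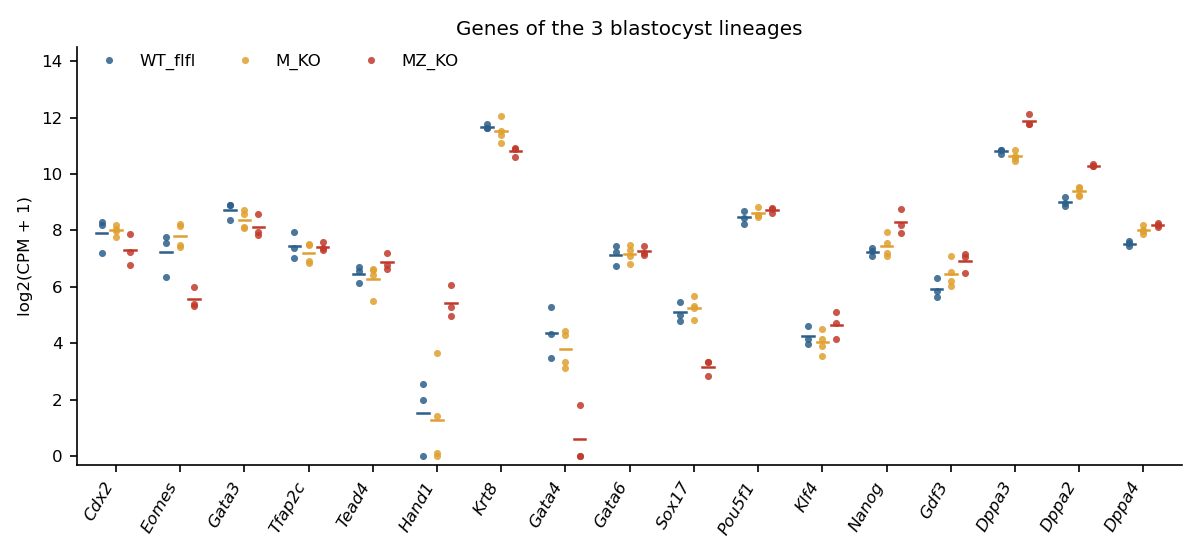
Level of 17 lineage genes on the scale log2(CPM + 1), from trophectoderm (left) over primitive endoderm to epiblast (right); each point is 1 embryo of WT_flfl (n = 3), M_KO (n = 4) or MZ_KO (n = 3) and each dash the group mean. Gata4, Sox17 and Eomes of MZ_KO lie below the other groups, Hand1, Dppa3 and Dppa2 above them, and Cdx2, Gata6 and Pou5f1 overlap.

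Among genes of the outer surface and its epithelium nearly every call was a fall. Of 19 tested apical and brush border genes 1 rose and 5 fell (median -0.61). Alpl, tissue-nonspecific alkaline phosphatase, fell from 384, 408 and 565 CPM in WT_flfl to 37.8, 55.2 and 26.5 CPM in MZ_KO, a difference of -3.51 in log2 units (SE 0.33, adjusted p = 5.92e-06). Dpp4, a surface dipeptidase, fell from 12.2, 20.6 and 18.4 CPM in WT_flfl to 2.29, 0.0459 and 0.0369 CPM in MZ_KO (difference -3.53, SE 0.70, adjusted p = 0.00351). Alpl of every MZ_KO embryo was far below the lowest M_KO embryo. No overlap with WT_flfl was required by the rule for naming list members. Of 48 genes of cavitation, polarity and junctions 0 rose and 9 fell (median -0.33). Ezr, which ties actin to the apical membrane, fell from 175, 218 and 81.9 CPM in WT_flfl to 32.6, 20.7 and 36.3 CPM in MZ_KO, a difference of -2.29 in log2 units (SE 0.33, adjusted p = 2.62e-04). The related Msn fell from 355, 279.9 and 269 CPM in WT_flfl to 44.1, 44.7 and 183 CPM in MZ_KO (difference -2.05, SE 0.41, adjusted p = 0.00368), MZ_KO 7 being the highest. Slc9a3r1, the scaffold that binds both, fell from 271, 262 and 280.5 CPM in WT_flfl to 116, 116 and 132 CPM in MZ_KO (difference -1.16, SE 0.21, adjusted p = 0.00197).

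The cytoskeleton was mixed. Of 52 actin genes 5 rose and 7 fell: the muscle alpha-actinin Actn2 rose by 2.58, while the non-muscle myosin Myh10 fell from 365, 453 and 309.8 CPM in WT_flfl to 99.4, 156 and 215 CPM in MZ_KO (difference -1.31, SE 0.24, adjusted p = 0.00241) and Tmsb4x, which binds free actin, fell from 481, 252 and 122 CPM in WT_flfl to 81.6, 14 and 43.5 CPM in MZ_KO (difference -2.70, SE 0.66, adjusted p = 0.0128). The call on Tmsb4x did not hold without MZ_KO 6 or WT_flfl 1 (adjusted p up to 0.063). Of 35 tubulins and motors 0 rose and 4 fell, and Tubb5, a beta-tubulin, fell from 398, 387 and 291 CPM in WT_flfl to 104, 119 and 57.6 CPM in MZ_KO (difference -1.98, SE 0.26, adjusted p = 1.36e-04). Of 12 keratins and intermediate filaments 0 rose and 1 fell, Krt8. Of 39 genes of basement membrane, matrix and integrins 2 rose and 7 fell (median -0.38). Hspg2, the proteoglycan perlecan, rose from 1.38, 0.144 and 1.37 CPM in WT_flfl to 22.6, 30.3 and 30.7 CPM in MZ_KO (difference 3.94, SE 0.73, adjusted p = 0.00224), against the fall of Lamb1. Serpinh1, the collagen chaperone, fell from 145, 131 and 34.1 CPM in WT_flfl to 11.3, 0.184 and 20.2 CPM in MZ_KO (difference -3.70, SE 1.01, adjusted p = 0.0241). Serpinh1 was not called without MZ_KO 6, WT_flfl 1 or WT_flfl 7 (adjusted p up to 0.109).

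Calls among the subunits of the respiratory chain lay mostly in complex I, the longest of these lists. Of its 37 tested subunits 2 rose and 6 fell (16.2% lower, median 0.03). Of 26 of complexes II to IV 0 rose and 1 fell (3.85% lower), Uqcrc1 (-0.64, adjusted p = 0.007). Of 17 of ATP synthase 0 rose and 2 fell (11.8% lower). Ndufb7 of complex I fell from 119, 114 and 116 CPM in WT_flfl to 24.5, 18.2 and 20.5 CPM in MZ_KO, a difference of -2.42 in log2 units (SE 0.20, adjusted p = 1.37e-06). Its assembly factor Ndufaf3 fell from 25.9, 21.5 and 27.8 CPM in WT_flfl to 5.58, 5.1 and 9.07 CPM in MZ_KO (difference -1.81, SE 0.33, adjusted p = 0.00202), while of the 41 assembly factors 5 rose and 2 fell; the ATP synthase factors Tmem70 and Atpaf2 rose by 0.94 and 0.93 (adjusted p = 0.00157 and 0.00701).

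Beside Gfm1, further genes that translate mitochondrial messages fell: of 35 factors and synthetases 0 rose and 7 fell (median -0.08). Aars2, which charges alanine transfer RNA in mitochondria, fell from 50.02, 42.7 and 31.4 CPM in WT_flfl to 1.42, 13.3 and 4.79 CPM in MZ_KO (difference -2.83, SE 0.48, adjusted p = 0.0011). Iars2, its isoleucine counterpart, fell from 95.8, 133 and 133 CPM in WT_flfl to 15.8, 16.2 and 40.2 CPM in MZ_KO (difference -2.40, SE 0.36, adjusted p = 4.53e-04). In both, 1 MZ_KO embryo stood above the other 2. The groups did not overlap, as the rule for naming list members required. Cytosolic synthetases gave 0 rises and 3 falls of 22, and cytosolic translation factors 6 rises and 1 fall of 53 (median 0.13), with Eif4ebp1, a brake on cap-dependent translation, up by 0.87 (adjusted p = 0.00468). Of 19 genes of mitochondrial DNA and transcription 0 rose and 2 fell, of 26 of fusion, fission and turnover 0 and 2, and of 28 carriers of family 25 0 and 2. Slc25a11, which exchanges oxoglutarate for malate, fell from 166, 130.5 and 254 CPM in WT_flfl to 73.4, 50.7 and 79.2 CPM in MZ_KO (difference -1.39, SE 0.26, adjusted p = 0.00227).

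Iron and haem genes gave few calls, all of them falls. Bola3, which passes iron-sulfur clusters on to mitochondrial enzymes, fell from 30.7, 27.7 and 30.4 CPM in WT_flfl to 3.12, 2.16 and 2.73 CPM in MZ_KO (difference -3.07, SE 0.34, adjusted p = 2.92e-05). Several enzymes of the respiratory chain and of the tricarboxylic acid cycle carry such clusters. Of 32 iron and haem genes 0 rose and 4 fell (12.5%), near the 4.84% and 8.36% of all genes tested. The list median was -0.05, as over all genes. Of 33 genes of pyruvate, tricarboxylic acid cycle and malate-aspartate shuttle 3 rose and 9 fell (median -0.44).

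Genes that move reducing power and glucose carbon were among the falls. Got2, the mitochondrial transaminase of the malate-aspartate shuttle, fell from 114, 114 and 111 CPM in WT_flfl to 14.3, 9.64 and 7.63 CPM in MZ_KO, a difference of -3.35 in log2 units (SE 0.25, adjusted p = 4.06e-07). Its cytosolic partner Got1 fell from 377, 394 and 258 CPM in WT_flfl to 155, 157 and 167 CPM in MZ_KO (difference -1.07, SE 0.18, adjusted p = 0.00102). Glud1, glutamate dehydrogenase, fell from 135, 120.0 and 99.8 CPM in WT_flfl to 59, 52.4 and 39.3 CPM in MZ_KO (difference -1.23, SE 0.21, adjusted p = 0.00131). M_KO stood at 83.3, 115, 97.9 and 71.4 CPM of Got2, above every MZ_KO embryo. Of 24 glycolysis and lactate genes 1 rose and 7 fell (median -0.44), the rise being Tigar (0.89), which lowers glycolytic flux. For Tigar the call was lost without MZ_KO 2 (adjusted p up to 0.0532). Slc2a1, the basal glucose transporter, fell from 68.8, 88.7 and 47.6 CPM in WT_flfl to 9.79, 10.4 and 19.5 CPM in MZ_KO (difference -2.30, SE 0.47, adjusted p = 0.00412). Of 20 pentose phosphate and hexosamine genes 2 rose and 1 fell; the hexosamine enzymes Gnpnat1 and Uap1 rose by 1.28 and 1.22 (adjusted p = 0.00486 and 0.00175).

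Genes of fatty acid use and lipid synthesis gave falls and no rise. Of 36 genes of fatty acid binding, oxidation and droplets 0 rose and 7 fell (median -0.34), such as Acaa2, the last thiolase of mitochondrial oxidation, which fell from 240.2, 293 and 252 CPM in WT_flfl to 108, 88 and 88.9 CPM in MZ_KO (difference -1.45, SE 0.16, adjusted p = 2.42e-05). Of 33 genes of cholesterol and fatty acid synthesis 0 rose and 5 fell. Scd1, which desaturates fatty acids, fell from 63.6, 75.7 and 144 CPM in WT_flfl to 18.2, 42.3 and 6.6 CPM in MZ_KO (difference -2.28, SE 0.50, adjusted p = 0.00667). Of 30 peroxisome genes 1 rose and 3 fell.

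Amino acid and one-carbon genes were called in both directions. In transsulfuration, Cbs, which makes cystathionine, fell from 214, 189 and 233 CPM in WT_flfl to 49.7, 23.4 and 50.5 CPM in MZ_KO, a difference of -2.41 in log2 units (SE 0.35, adjusted p = 2.89e-04). Cth, which takes it on to cysteine, rose from 35.8, 29.2 and 48 CPM in WT_flfl to 97.3, 84.8 and 102 CPM in MZ_KO, a difference of 1.33 in log2 units (SE 0.26, adjusted p = 0.00332). Ahcy, which clears S-adenosylhomocysteine, rose from 139, 174 and 146 CPM in WT_flfl to 485, 346 and 399 CPM in MZ_KO (difference 1.41, SE 0.19, adjusted p = 1.41e-04). That list gave 3 rises and 3 falls of 21. Of 36 genes of serine, one-carbon and nucleotide synthesis 3 rose and 8 fell: Phgdh, the first enzyme of serine synthesis, rose by 1.11 and the mitochondrial folate enzyme Mthfd2 fell by 2.30 (adjusted p = 0.00979 and 0.00487). Of 21 amino acid transporters 1 rose and 3 fell (median -0.58). The glutamate transporter Slc1a1 rose from 204, 223 and 156 CPM in WT_flfl to 335, 512 and 412 CPM in MZ_KO (difference 1.10, SE 0.22, adjusted p = 0.00411), and the peptide transporter Slc15a2 fell from 292, 319.9 and 402 CPM in WT_flfl to 85.5, 55.1 and 92.1 CPM in MZ_KO (difference -2.13, SE 0.40, adjusted p = 0.0025). Of 37 antioxidant genes 2 rose and 1 fell, Mgst3 (-2.48, adjusted p = 9.02e-04), a glutathione transferase.

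**Figure D5:**
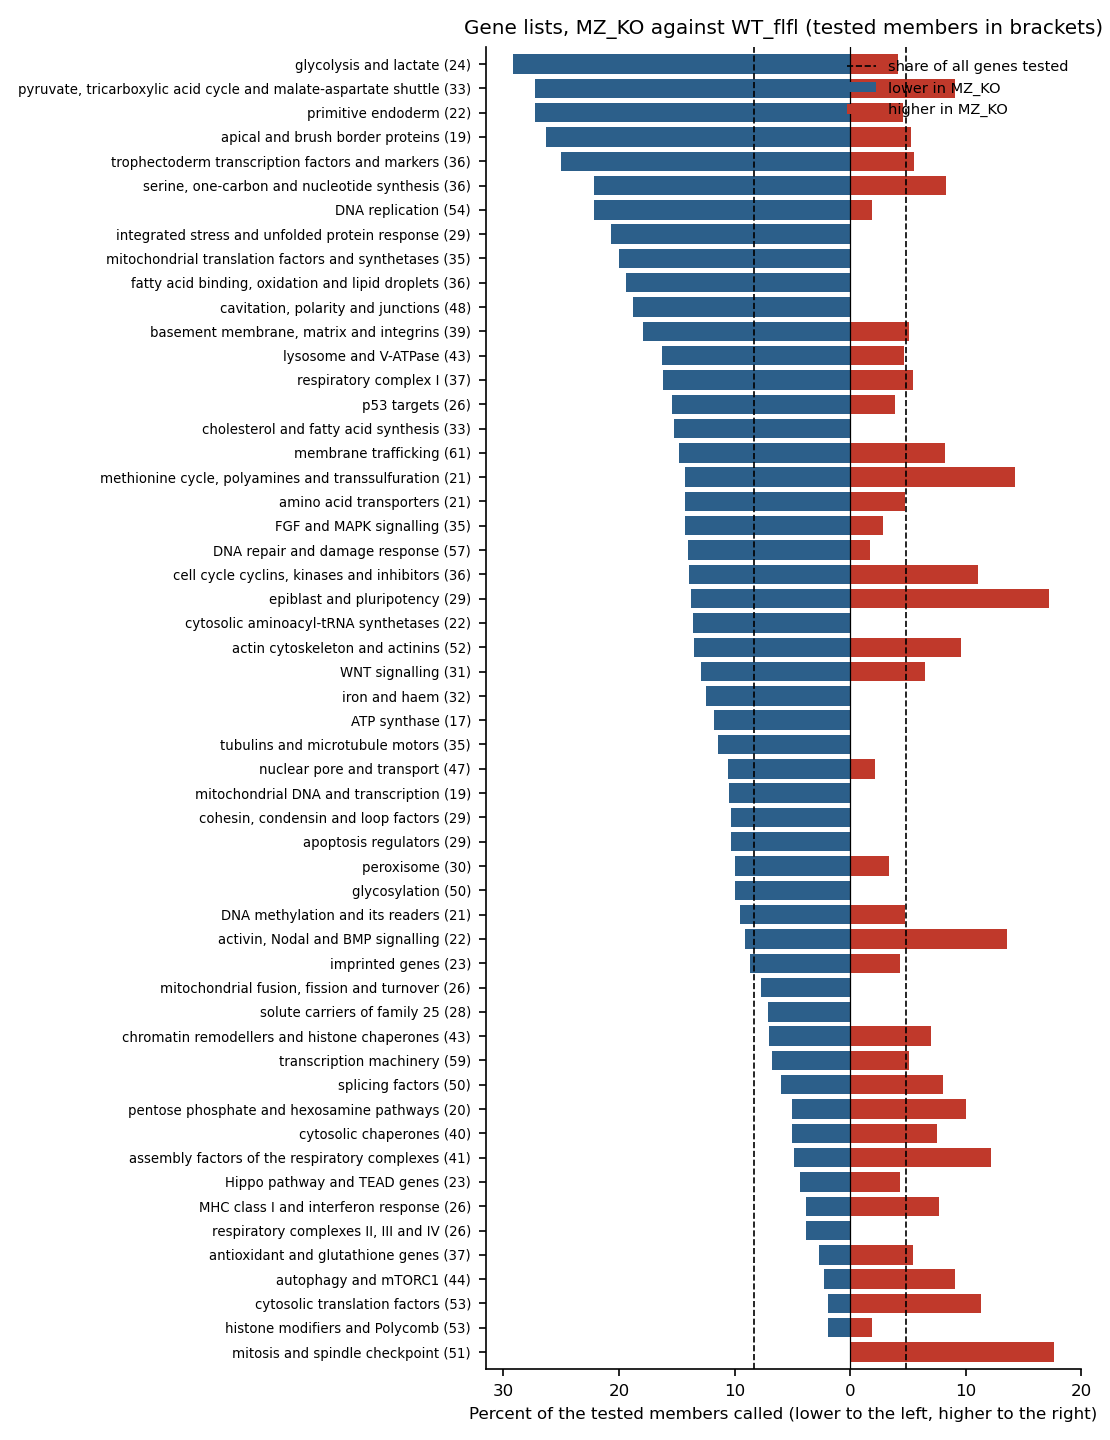
Share of the tested members of each gene list that fell (left, blue) and rose (right, red) in MZ_KO against WT_flfl, in percent of tested members, for the lists with at least 15 tested members; dashed lines mark the 8.36% and 4.84% of all genes tested. Glycolysis, the tricarboxylic acid cycle and primitive endoderm have the largest shares of falls, and the mitosis list has 9 rises and 0 falls of 51.

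Stress and secretory genes are given by list. Among 29 tested genes that answer amino acid shortage or unfolded proteins, 0 rose and 6 fell (median -0.42). Asns, asparagine synthetase and a target of ATF4, fell from 98, 35.4 and 89.4 CPM in WT_flfl to 7.0, 4.59 and 3.39 CPM in MZ_KO (difference -3.57, SE 0.53, adjusted p = 3.69e-04), and the chaperone Hsp90b1 of the endoplasmic reticulum fell from 689, 587 and 638 CPM in WT_flfl to 292, 232 and 427 CPM in MZ_KO (difference -1.05, SE 0.21, adjusted p = 0.00349). Of 40 genes of the chaperone list 3 rose and 2 fell, Hsph1 and the mitochondrial Hspd1. Of 50 glycosylation genes 0 rose and 5 fell. Alg5, which makes the glucose donor of N-glycans, fell from 64.4, 45.6 and 97.3 CPM in WT_flfl to 11.7, 2.48 and 5.27 CPM in MZ_KO, a difference of -3.36 in log2 units (SE 0.39, adjusted p = 3.81e-05). Pomt1, which starts O-mannosylation, fell from 29.9, 25.8 and 20.3 CPM in WT_flfl to 2.37, 4.22 and 3.24 CPM in MZ_KO (difference -2.63, SE 0.35, adjusted p = 1.43e-04). Of 61 membrane trafficking genes 5 rose and 9 fell, of 43 lysosome and V-ATPase genes 2 and 7, and of 44 autophagy genes 4 and 1. Rab29, a Rab GTPase of the Golgi and lysosome, rose from 58.4, 44.7 and 68.5 CPM in WT_flfl to 158, 146 and 151 CPM in MZ_KO (difference 1.41, SE 0.24, adjusted p = 0.00128). The lysosomal protease Ctsb fell from 207, 225 and 236 CPM in WT_flfl to 88.1, 79.8 and 121 CPM in MZ_KO (difference -1.22, SE 0.23, adjusted p = 0.00225).

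Calls among replication genes were nearly all falls, and those among mitotic genes all rises. Of 54 DNA replication genes 1 rose and 12 fell (median -0.44); Pole, the leading-strand polymerase, fell from 40.7, 40.9 and 39.8 CPM in WT_flfl to 20.2, 3.21 and 10.5 CPM in MZ_KO (difference -2.04, SE 0.43, adjusted p = 0.00574). Rpa1, which coats single-stranded DNA, fell from 118, 115 and 93.8 CPM in WT_flfl to 28.2, 31.2 and 21.6 CPM in MZ_KO, a difference of -1.98 in log2 units (SE 0.22, adjusted p = 3.09e-05), within a repair list of 57 genes with 1 rise and 8 falls (median -0.37). Of 51 genes of mitosis and the spindle checkpoint 9 rose and 0 fell, by 0.66 to 0.91 each, around a list median near 0 whose sign changes with the scaling. Bub3 of the checkpoint rose from 257, 249 and 306 CPM in WT_flfl to 574, 495 and 373 CPM in MZ_KO (difference 0.81, SE 0.17, adjusted p = 0.00484). Of 36 cyclins, kinases and inhibitors 4 rose and 5 fell: Ccne1, the cyclin of entry into S phase, rose from 129, 136 and 97 CPM in WT_flfl to 399, 373 and 405 CPM in MZ_KO, a difference of 1.71 in log2 units (SE 0.38, adjusted p = 0.00713). E2f1, which switches on S phase genes, fell from 44.9, 44.5 and 51.8 CPM in WT_flfl to 22.7, 14.6 and 23 CPM in MZ_KO (difference -1.21, SE 0.26, adjusted p = 0.00667). Every MZ_KO embryo had more Ccne1 than any M_KO embryo, and no overlap with WT_flfl was part of the naming rule. Mycn fell from 36.4, 48.1 and 41.7 CPM in WT_flfl to 9.58, 0 and 8.59 CPM in MZ_KO (difference -3.20, SE 0.65, adjusted p = 0.00436). Of 26 p53 targets 1 rose and 4 fell, and of 29 apoptosis regulators 0 rose and 3 fell; Apaf1, which assembles the apoptosome, is in both lists and fell by 1.78. The call on Apaf1 did not hold without MZ_KO 6 or WT_flfl 7 (adjusted p up to 0.0629).

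Chromatin genes gave calls in both directions. Of 53 histone modifiers and Polycomb genes 1 rose and 1 fell, of 43 remodellers and chaperones 3 and 3, and of 29 cohesin, condensin and loop factors 0 and 3, one of them Ctcf. Stag3, the meiotic cohesin subunit, fell from 23.7, 38.7 and 45.7 CPM in WT_flfl to 9.0, 6.61 and 1.44 CPM in MZ_KO (difference -2.65, SE 0.49, adjusted p = 0.00214), with M_KO at a mean of 12.3 CPM. Of 21 genes of DNA methylation 1 rose and 2 fell: Dppa3 rose, and Uhrf1, which brings the maintenance methyltransferase to DNA, fell from 202, 258 and 184 CPM in WT_flfl to 34.4, 82.6 and 53.9 CPM in MZ_KO (difference -1.97, SE 0.28, adjusted p = 2.55e-04). Kdm1a, a histone demethylase, fell from 104, 132 and 151 CPM in WT_flfl to 68.2, 35.2 and 19.3 CPM in MZ_KO (difference -1.79, SE 0.31, adjusted p = 0.00136). The 23 imprinted genes tested gave 1 rise and 2 falls, among them H13 (-1.35, adjusted p = 0.00208). No clustered protocadherin, a family whose promoters CTCF is known to loop, passed the filter on low values.

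Genes of RNA processing and transport had shares called near the 13.2% of all genes tested. Of 50 splicing factors 4 rose and 3 fell, of 59 genes of the transcription machinery 3 and 4, and of 47 genes of the nuclear pore and transport 1 and 5. Snrpd1, a core protein of the spliceosome, fell from 100.5, 123 and 170.4 CPM in WT_flfl to 49.8, 41.6 and 39 CPM in MZ_KO (difference -1.55, SE 0.20, adjusted p = 1.25e-04). Polr2c, a subunit of RNA polymerase II, fell from 244, 214 and 196 CPM in WT_flfl to 106, 106 and 69.9 CPM in MZ_KO (difference -1.22, SE 0.19, adjusted p = 6.09e-04). Of 26 MHC class I and interferon genes 2 rose and 1 fell; B2m, the light chain, and H2-Q7, a class I heavy chain with close paralogs, rose by 2.27 and 2.00, and the immunoproteasome subunit Psmb9 fell by 1.96. H2-Q7 was not called without WT_flfl 9 (adjusted p up to 0.0566). For Psmb9 the call was lost in 5 of the 6 fits without 1 embryo (adjusted p up to 0.11).

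Ligands, receptors and feedback genes of signalling pathways were among the calls. In WNT signalling, 31 genes tested, 2 rose and 4 fell. The ligand Wnt3a fell from 111, 88.5 and 89.9 CPM in WT_flfl to 6.62, 18.1 and 6.67 CPM in MZ_KO, a difference of -3.22 in log2 units (SE 0.37, adjusted p = 3.21e-05), with M_KO between the groups at 48.2, 65.2, 40.3 and 71.4 CPM. The ligand Wnt6 fell from 17.4, 28.8 and 14.8 CPM in WT_flfl to 2.21, 2.57 and 7.74 CPM in MZ_KO (difference -2.14, SE 0.52, adjusted p = 0.0127). The call on Wnt6 did not hold without MZ_KO 2 or WT_flfl 7 (adjusted p up to 0.0626). Kremen1, a receptor for the WNT inhibitor DKK, fell from 22.6, 11.9 and 14.1 CPM in WT_flfl to 1.08, 1.65 and 2.8 CPM in MZ_KO (difference -2.59, SE 0.61, adjusted p = 0.0106). In FGF and MAPK signalling 1 of 35 rose and 5 fell; the feedback phosphatase Dusp6 fell from 52.9, 66.3 and 95.2 CPM in WT_flfl to 16.9, 26.7 and 28.5 CPM in MZ_KO (difference -1.53, SE 0.37, adjusted p = 0.0112), and the immediate early gene Junb fell from 48.7, 59.3 and 22.1 CPM in WT_flfl to 10.2, 12.1 and 1.55 CPM in MZ_KO (difference -2.51, SE 0.54, adjusted p = 0.00609). Dusp6 was not called without MZ_KO 2 or WT_flfl 9 (adjusted p up to 0.056). In activin, Nodal and BMP signalling 3 of 22 rose and 2 fell. Both secreted or membrane inhibitors named by the rule rose: Bambi, a decoy receptor, rose from 9.41, 12.8 and 7.39 CPM in WT_flfl to 38.5, 65 and 75.7 CPM in MZ_KO, a difference of 2.46 in log2 units (SE 0.36, adjusted p = 3.25e-04). Fstl3, which traps activin, rose from 36.9, 39.9 and 16.4 CPM in WT_flfl to 155, 138 and 148 CPM in MZ_KO (difference 2.30, SE 0.37, adjusted p = 7.52e-04). Id2, a target of BMP, fell from 357, 286 and 657 CPM in WT_flfl to 161, 235 and 138 CPM in MZ_KO (difference -1.22, SE 0.37, adjusted p = 0.0369). For Id2 the call was lost in 4 of the 6 fits without 1 embryo (adjusted p up to 0.162). Of 23 genes of the Hippo pathway and its TEAD partners 1 rose, Ccn2, and 1 fell, Limd1 (-2.11). The call on Limd1 did not hold in 4 of the 6 fits without 1 embryo (adjusted p up to 0.071).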

How the data were processed

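Whole blastocysts were profiled 1 by 1. The values deposited by the authors are log2 CPM with an offset of 0.5 reads, as the lowest value of each column shows. The tools named per the submitters' processing notes are RSEM 1.3.1, Bowtie2 2.2.9 and cutadapt 1.14, with build GRCm38 (mm10). Strand use in counting is not stated in these sources, so overlapping, antisense and paralogous genes are uncertain. The floor was subtracted to recover CPM, and 100.0% of values came out as whole reads within 0.01. Genes that reached 10 CPM in 3 or more of the 14 blastocysts of batch 1 were tested on log2(CPM + 1) with limma 3.58.1 (R 4.3.3): 4 groups in 1 fit, trended variance, two-sided, Benjamini-Hochberg adjusted over all genes tested. The fit was also run on simulated data with independent noise in each embryo. Those data held no planted outlying embryo and no effect of title prefix, so they cannot show how such features change the calls.

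Of 15582 genes, 15575 had a symbol and a position. The 3 entries naming no mouse gene, which took up to 0.0114% of an embryo's reads, and the morula table were left out. Columns were assigned by the embryo code in the sample titles.

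Ctcf was named. So were the 15 largest falls and 15 largest rises among called genes whose groups did not overlap. The higher group of these had to have a mean of at least 30 CPM. Up to 4 called members per list were named, again only where the groups did not overlap. The 12 lineage factors and called neighbours of named genes were added. Some genes that met these rules are not reported here. The comparison, the lists and the members were chosen with earlier results of these data known. Alternatives were other scalings, filters, pseudocounts, variance models, precision weights (voom), only the 2 groups, and leaving out each embryo.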

Additional observations from a re-analysis of the deposited data

Results flagged for a closer look

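For 40 genes, those named by size, the lineage factors and Ctcf, the highest and the lowest of the 4 M_KO embryos were compared with the rest by Dixon's ratio of gap to range at its 95% critical value; chance flags about 1 in 20 such groups. Adh1 stood at 386 CPM in M_KO 3 against 19.7, 2.95 and 63.3 CPM in the other M_KO embryos (ratio 0.843). BC051665 stood at 270 CPM in M_KO 3 against 25.4, 16.1 and 5.49 CPM (ratio 0.925). Ppa2 stood at 79.7 CPM in M_KO 3 against 54.4, 58.7 and 57.8 CPM (ratio just above that value). Hand1 stood at 11.6 CPM in M_KO 5 against 0, 0.0966 and 1.66 CPM (ratio 0.857). The MZ_KO embryos are 3 per group and were not looked at in this way.

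A signal outside the mouse genes was the entry LacZ, which no comparison uses. It stood at 48.7, 86.5 and 114 CPM in MZ_KO and at 0.0923, 1.54 and 0 CPM in WT_flfl. It was at 10.9, 18.8, 45.1 and 28 CPM in M_KO and 36.1, 27.8, 23.3 and 24.8 CPM in het. The entry Neomycine went the other way, at 0 CPM in each MZ_KO embryo and 32.9, 19.8 and 23.9 CPM in WT_flfl, and Puromycin stood at 0.417, 0 and 0 CPM against 28.9, 25.1 and 16.3 CPM. M_KO and het lay between these groups, at 4.8 to 11.8 CPM of Neomycine and 4.66 to 20.5 CPM of Puromycin; the highest Puromycin value, in M_KO 3, was above that of WT_flfl 9.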

How the results depend on the processing

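No difference of a named gene changed direction where the gene was called in the main fit or in the alternative. Changes of direction without a call in either were not counted. Of 1368 values without 1 embryo for 228 single genes, 265 lost the call and 3 gained one; of 2496 values under other settings, 222 lost it, 52 of them with voom precision weights, and the cause was not tested. The count of genes called, 1265, ranged from 783 (without WT_flfl 7; 828 without WT_flfl 1) to 1153 without 1 embryo; rises, 464, from 252 to 378; falls, 801, from 501 to 775; called members of all lists, 308, from 204 to 301; and MZ_KO against M_KO, 1133, from 726 (without MZ_KO 2; 727 without M_KO 1) to 1112. Without WT_flfl 1 and het 6, an alternative chosen after seeing the data, 787 genes were called, 297 higher and 490 lower. Of the 30 genes named by size 15 were called with precision weights. The fall of Ctcf kept its direction and call under every alternative run. The filter on the mean of the 6 embryos was not run for MZ_KO against M_KO. The median difference of all genes lay between -0.0549 and -0.0219 over the scalings; the medians of the lists for cell cycle, membrane trafficking, mitochondrial DNA and transcription, and mitosis, all near 0, changed sign. No paired analysis was possible because MZ_KO (2, 6 and 7) and WT_flfl (1, 7 and 9) share only the number 7. With 3 embryos per group, genes at a few CPM are the least certain.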
